A study of Arabidopsis thaliana with 20 samples.

Results

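Transcript levels of 10 genes of carotenoid synthesis, the xanthophyll cycle and carotenoid cleavage were followed in whole leaves of Arabidopsis thaliana. The 10 were picked by gene identifier for their place in the pathway, from 33104 genes listed in every deposited table. The selection rule uses no measured value, although earlier results of these data were known when it was made. They are PSY, LYC, LUT2, BCH1, BCH2, LUT5, LUT1, ZEP, VDE and CCD4. The wild type Col-0 was compared with ilp1-1, a line mutated in ILP1, a protein associated with the spliceosome. The lesion carried by ilp1-1 is not described in the labels, nor is the number of plants in a library.

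All plants were 4 weeks old and had grown in days of 10 h. The 0 h leaves had received 2 h of normal light at 100 µmol photons m-2 s-1. Further leaves were taken 4 h, 8 h and 16 h into continuous high light of 500 µmol photons m-2 s-1. The 30 h leaves had received 24 h of high light followed by 6 h at the normal level. For every genotype and time there were 2 libraries of poly-A RNA, which makes 10 groups and 20 libraries. Light and hour of the day changed together, so their parts in a change over time cannot be told apart, and a normal-light series over the same hours was not analysed here.

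Carotenoids are built in plastids from geranylgeranyl diphosphate, and phytoene synthase (PSY) catalyses the entry step. Lycopene is then cyclised either on both ends by the β-cyclase LYC, towards β-carotene and zeaxanthin, or by LYC together with the ε-cyclase LUT2, towards lutein. In strong light the de-epoxidase VDE turns violaxanthin into zeaxanthin, which helps leaves to dissipate excess excitation as heat, and the epoxidase ZEP turns zeaxanthin back.

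Levels are deposited FPKM values, which are scaled for gene length and depth, and differences are on the log2(FPKM + 1) scale with their standard error (SE). A difference passed where its limma p, adjusted by the Benjamini-Hochberg method, was under 0.05, in a fit of 19311 genes at 1 FPKM or more in at least 2 libraries. All 10 genes met that filter. The labels do not say whether the 2 libraries of a group came from separate plants, so the p-values measure the spread between these libraries. Depth lay between 11.4 and 19.0 M reads per library. The 2 Col-0 libraries of 0 h stood further apart than those of any other group, with a chi-square per degree of freedom of 28.8 over genes against 3.04 to 10.1 in the other 9, and they are the baseline of every Col-0 change from 0 h.

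ILP1 itself was higher, not lower, with the ilp1-1 label at 0 h (1.09 ± 0.18) and 4 h (0.51 ± 0.18) by limma, and did not pass at 8 h, 16 h or 30 h. With that label it ranged from 2.72 to 8.90 FPKM against 2.63 to 3.88 FPKM in Col-0. Directions given for ilp1-1 therefore refer to the libraries labelled so. ILP1 shares 93 bases with AT5G08540, a gene of the opposite strand that reached 118 FPKM, and 246 bases with AT5G01555, listed at 0. Whether reads were counted by strand is not given, and the part of neighbour reads in the ILP1 values was not tested. The share of plastid-encoded reads was 0.0995 to 0.453% for ilp1-1 at 4 h and 8 h (4 libraries) and 0.0188 to 0.0349% in the other 16 libraries. The leaf genes RBCS1A, CA1 and LHCB1.1 were present in every library, the seed genes CRA1 and OLE1 stayed at or under 0.173 FPKM, and the root hair gene RHD6 was at 0. PYK10, the other root marker listed, was present in every library (6.00 to 17.4 FPKM). Of the flower markers AP3 stayed at or under 0.371 FPKM, and AG ranged from 0.122 to 0.609 FPKM in Col-0 and 0.324 to 2.39 FPKM in ilp1-1, so it met the filter only through ilp1-1 libraries of 0 h and 4 h. The 3 leaf mesophyll markers summed to 22060 to 29350 FPKM in the Col-0 libraries and 12990 to 26490 FPKM in the ilp1-1 libraries. Among them RBCS1A ranged from 12030 to 25790 FPKM, CA1 from 402 to 1808 and LHCB1.1 from 24.7 to 7940. The 3 guard cell markers summed to 7.18 to 23.8 FPKM in Col-0 and 9.14 to 29.1 FPKM in ilp1-1. As a mean over the 5 times, 3 of 3 mesophyll markers were lower in ilp1-1, beside 27.8% of all genes tested. All 3 guard cell markers were higher, beside 29.3%. With reads scaled to library totals these counts were the same, beside 16.65% of all genes lower and 47.7% higher. At 8 h under that scaling 1 mesophyll marker was lower and 1 higher, and 1 guard cell marker was higher, beside 11.8 and 20.25%. The part of these marker differences in the results was not tested. In whole leaves, fewer cells of a type and less RNA per cell cannot be told apart.

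Positions are those of the deposited tables, on TAIR10. PSY (AT5G17230) lies on the minus strand at chr5:5659554-5662997. The cyclase genes are LYC (AT3G10230, listed as LCY1, minus strand, chr3:3164075-3166038) and LUT2 (AT5G57030, plus strand, chr5:23077120-23080096). The hydroxylase genes are BCH1 (AT4G25700, listed as BETA-OHASE 1, minus strand, chr4:13093869-13096049), BCH2 (AT5G52570, listed as BETA-OHASE 2, minus strand, chr5:21334793-21337126), LUT5 (AT1G31800, listed as CYP97A3, plus strand, chr1:11396402-11399714) and LUT1 (AT3G53130, listed as CYP97C1, plus strand, chr3:19692757-19697542). The xanthophyll cycle genes are ZEP (AT5G67030, minus strand, chr5:26753469-26757402) and VDE (AT1G08550, listed as VDE1, plus strand, chr1:2706868-2709988). CCD4 (AT4G19170) is on the plus strand at chr4:10481619-10483879. For LYC and CCD4 the deposited gene length equals the span of the gene. Introns of single transcript models were not looked up.

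Several of these genes overlap a neighbour, and whether reads were counted by strand is not given in the sources used here. PSY shares 108 bases with AT5G17220, a gene of the opposite strand that reached 938 FPKM. LUT1 shares 1900 bases with AT3G53140 on the same strand, a gene listed at 0 in all 20 libraries, so how reads of that stretch were assigned is uncertain. VDE shares 464 bases with AT1G08560, which stayed at or under 9.59 FPKM. LUT2, LUT5 and BCH2 share 74, 108 and 19 bases with 1 gene each, LYC shares 157 and 199 bases with 2 genes, and ZEP, BCH1 and CCD4 overlap none.

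The promoter windows of the 3 genes that fell furthest during high light, CCD4, BCH2 and ZEP, are shown with that of VDE, which rose in Col-0. Each is the 250 bases before the deposited gene start, read 5′ to 3′ on the strand of the gene from the TAIR10.1 reference, in which 99.95% of 32548 shared nuclear genes have the same start and end. Capitals mark a match to 1 of 5 motifs searched on both strands.
CCD4 promoter, chr4:10481369-10481618, plus strand: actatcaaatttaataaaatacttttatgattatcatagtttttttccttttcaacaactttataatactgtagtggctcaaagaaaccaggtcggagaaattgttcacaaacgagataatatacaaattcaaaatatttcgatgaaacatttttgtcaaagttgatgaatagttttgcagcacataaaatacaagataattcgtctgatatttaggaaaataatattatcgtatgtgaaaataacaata
BCH2 promoter, chr5:21337127-21337376, minus strand: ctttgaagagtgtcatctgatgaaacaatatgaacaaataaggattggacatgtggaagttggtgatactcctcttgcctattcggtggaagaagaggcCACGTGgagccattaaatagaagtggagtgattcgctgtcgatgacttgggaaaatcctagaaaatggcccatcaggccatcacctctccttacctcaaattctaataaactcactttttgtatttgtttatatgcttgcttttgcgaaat
ZEP promoter, chr5:26757403-26757652, minus strand: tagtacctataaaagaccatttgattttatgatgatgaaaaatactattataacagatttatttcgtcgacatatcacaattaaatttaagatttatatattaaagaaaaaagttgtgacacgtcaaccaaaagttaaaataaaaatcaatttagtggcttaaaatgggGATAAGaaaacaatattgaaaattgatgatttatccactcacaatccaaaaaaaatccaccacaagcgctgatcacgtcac
VDE promoter, chr1:2706618-2706867, plus strand: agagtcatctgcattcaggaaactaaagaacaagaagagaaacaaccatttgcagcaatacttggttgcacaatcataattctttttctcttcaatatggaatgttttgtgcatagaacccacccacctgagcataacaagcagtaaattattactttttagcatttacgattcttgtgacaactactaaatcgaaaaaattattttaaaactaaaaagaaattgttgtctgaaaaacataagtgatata
The BCH2 window holds a G-box (CACGTG) 151 to 146 bases before the start, a motif found in 6.48% of 27419 windows of the same length before protein-coding genes. The ZEP window holds a GATA box (GATAAG, 12.3% of windows) 81 to 76 bases before the start. LUT1 also holds a GATA box, read on the other strand, BCH1 holds the CCA1-binding letters AAAAATCT (6.69%), which overlap a match to ATCTA (49.2%), and LUT2 holds ATCTA. The evening element AAAATATCT (2.36%) was in none of the 10 windows, and the CCD4 and VDE windows held none of the 5 motifs.

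The genes covered a wide range of levels. Averaged over the 20 libraries, PSY was highest at 138 FPKM, followed by ZEP at 83.0, BCH1 at 65.4, LUT5 at 64.3, LUT2 at 38.4, LYC at 31.3, CCD4 at 27.3, VDE at 23.4, BCH2 at 20.6 and LUT1 at 11.5 FPKM. The ranges over libraries of neighbours in this order overlap throughout, so the order is a description. The LUT1 level also depends on how reads of the 1900 bases shared with AT3G53140 were assigned, which is uncertain. By the median over libraries CCD4 (5.34 FPKM) and BCH2 (9.76 FPKM) come last, below LUT1, since their means rest on a few groups with high levels. The span within a gene differed far more, because LUT5 varied 2.04-fold between its lowest and highest library and CCD4 479-fold, from 0.238 to 114 FPKM.

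**Figure D1:**
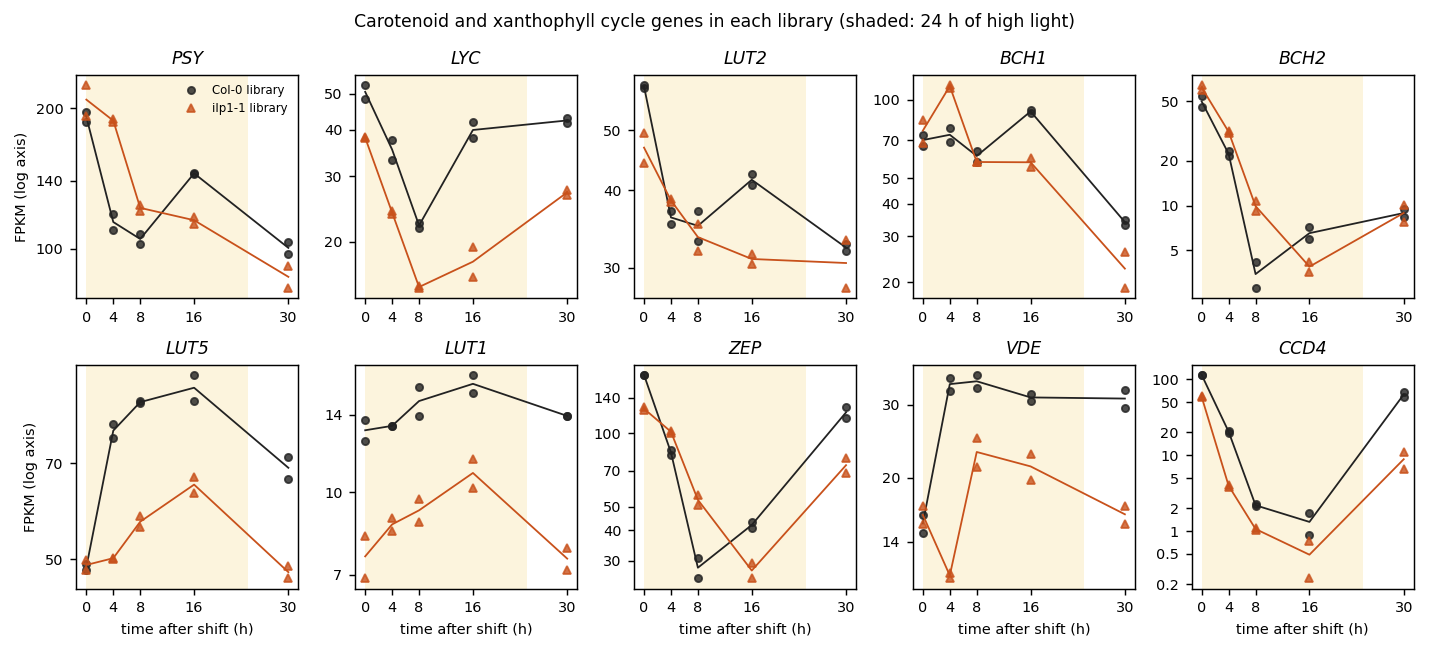
FPKM (log axis) of each gene against hours after the shift to high light, with 1 point per library, a line through the mean of 2 libraries, Col-0 as circles and ilp1-1 as triangles. CCD4, BCH2 and ZEP fell during high light in both genotypes, and VDE and LUT5 rose in Col-0 within 4 h.

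PSY fell during high light in Col-0 within 4 h, and in ilp1-1 it was still high at that time. In Col-0 the libraries held 187 and 197 FPKM at 0 h, 119 and 109 at 4 h, 108 and 102 at 8 h, 145 and 145 at 16 h, and 97.5 and 103 at 30 h. In ilp1-1 they held 225 and 193 FPKM at 0 h, 189 and 187 at 4 h, 124 and 121 at 8 h, 117 and 113 at 16 h, and 82.2 and 91.7 at 30 h. At 4 h both ilp1-1 libraries lay above both Col-0 libraries, and at 16 h and 30 h both lay below. The fall from 0 h to 4 h was -0.75 ± 0.074 in Col-0 (limma adjusted p = 6.73e-07) and -0.15 ± 0.074 in ilp1-1, which did not pass (adjusted p = 0.136). In limma-voom on recovered reads the ilp1-1 fall passed (-0.16, adjusted p = 0.0473). The Col-0 and ilp1-1 changes differed by 0.60 ± 0.10 (limma adjusted p = 0.00194). The genotype difference was 0.72 ± 0.074 at 4 h and -0.33 ± 0.074 at 16 h, opposite in sign, and both passed in limma. At 16 h it no longer passed with reads scaled to library totals, where it was -0.05. The smaller difference at 8 h (0.22) passed with all libraries, though it ended without any 1 of its own 4 libraries (0.18 to 0.26). At 30 h (-0.21) the call was lost in 18 of 28 alternatives, among them those without Col-0 30 h replicate 1, Col-0 30 h replicate 2 or ilp1-1 30 h replicate 1 (13 single libraries in all, -0.25 to -0.13), and the sign turned to 0.02 with reads scaled to totals.

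The cyclases behaved unlike each other in ilp1-1. LYC, which closes β-rings, held 48.3 and 52.9 FPKM in Col-0 at 0 h, 37.6 and 33.2 at 4 h, 22.4 and 21.8 at 8 h, 42.0 and 37.9 at 16 h, and 43.0 and 41.9 at 30 h. In ilp1-1 LYC held 37.9 and 38.3 FPKM at 0 h, 24.2 and 23.7 at 4 h, 15.1 ± 0.152 (SD, n = 2) at 8 h, 19.3 and 16.0 at 16 h, and 27.6 and 26.7 at 30 h. Both ilp1-1 libraries were below both Col-0 libraries at every time. LYC passed as lower at all 5 times, by -0.40 ± 0.089 at 0 h and -1.14 ± 0.089 at 16 h (limma adjusted p = 1.24e-07), when ilp1-1 stood at 0.442 of the Col-0 level. At 0 h the call ended without Col-0 replicate 2 (-0.33, limma adjusted p = 0.0588) and with the libraries of that time alone in the fit. By 16 h LYC had come closer to its 0 h level in Col-0 than in ilp1-1. The change from 0 h to 16 h was -0.33 ± 0.089 in Col-0 and -1.07 ± 0.089 in ilp1-1, and the difference of -0.74 ± 0.13 between them passed (limma adjusted p = 0.00082). The Col-0 change lost its call without Col-0 0 h replicate 2 (-0.27) or Col-0 16 h replicate 2 (-0.26).

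LUT2, which closes the ε-ring on the way to lutein, differed less between the genotypes. The Col-0 libraries held 58.5 and 59.3 FPKM at 0 h, 37.0 and 35.3 at 4 h, 37.0 and 33.1 at 8 h, 42.4 and 40.8 at 16 h, and 32.8 and 31.9 at 30 h. The ilp1-1 libraries held 49.5 and 44.3 FPKM at 0 h, 38.3 and 38.7 at 4 h, 35.3 and 31.9 at 8 h, 30.4 and 31.6 at 16 h, and 33.2 and 27.8 at 30 h. Libraries of the 2 genotypes overlapped at 8 h and 30 h. LUT2 was lower in ilp1-1 at 0 h (-0.32 ± 0.088) and 16 h (-0.41 ± 0.088) and did not pass at 4 h, 8 h or 30 h. With reads scaled to library totals it passed as higher at 4 h (0.25), which made 5 of the 10 genes higher and 5 lower at that time, beside 25.4% of all genes higher and 10.5% lower. The 0 h call ended without Col-0 0 h replicate 1 (-0.33), Col-0 0 h replicate 2 (-0.32) or ilp1-1 0 h replicate 2 (-0.25), and both calls ended with reads scaled to library totals (-0.22 and -0.14).

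The ratio of LUT2 to LYC within a library was higher in ilp1-1. In Col-0 the FPKM ratio was 1.17 ± 0.064 before high light (SD, n = 2). It then stood at 1.02 ± 0.054 (4 h), 1.58 ± 0.092 (8 h), 1.04 ± 0.045 (16 h) and 0.762 ± 0.00068 (30 h). In ilp1-1 the ratio was 1.23 ± 0.10 before high light, then 1.61 ± 0.034 (4 h), 2.23 ± 0.18 (8 h), 1.77 ± 0.28 (16 h) and 1.12 ± 0.12 (30 h). The genotypes overlapped at 0 h, and from 4 h on both ilp1-1 libraries were above both Col-0 libraries. On the log2 scale, with 0.1 FPKM added, ilp1-1 was 0.50 higher as a mean over the 5 times (exact permutation test within times, two-sided, p = 0.0005144, adjusted over 3 ratios 0.00154, smallest p possible 0.000257). Without the libraries of 4 h and 8 h the difference was 0.46 and no longer passed (exact permutation, adjusted p = 0.0556).

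**Figure D2:**
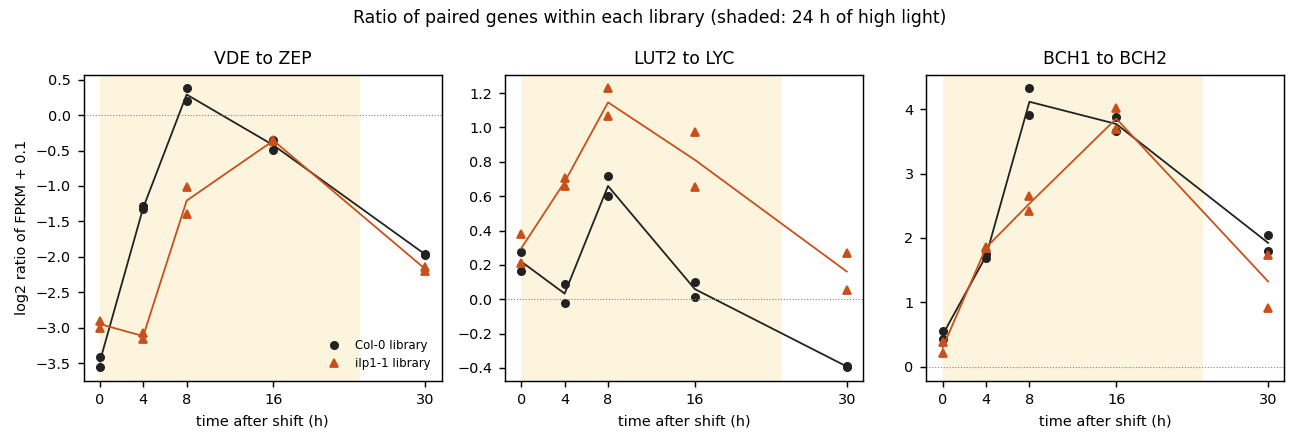
The log2 ratio of FPKM + 0.1 within each library against hours after the shift for VDE to ZEP, LUT2 to LYC and BCH1 to BCH2, with 1 point per library and a line through the mean of 2. The LUT2 to LYC ratio was higher in ilp1-1 from 4 h on, and the VDE to ZEP ratio of ilp1-1 lay below Col-0 at 4 h and 8 h and met it at 16 h.

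Among the hydroxylases, BCH1 and BCH2 act on β-rings and make zeaxanthin, and they took different courses. BCH1 held 73.2 and 66.7 FPKM in Col-0 at 0 h, 77.8 and 68.9 at 4 h, 63.8 and 57.8 at 8 h, 91.5 and 88.6 at 16 h, and 33.2 and 34.7 at 30 h. In ilp1-1 BCH1 held 83.7 and 68.4 FPKM at 0 h, 114 and 111 at 4 h, 57.8 and 57.6 at 8 h, 59.7 and 55.4 at 16 h, and 26.1 and 19.0 at 30 h. The ilp1-1 peak came at 4 h and the Col-0 peak at 16 h. The genotype difference of 0.61 ± 0.12 at 4 h passed (limma adjusted p = 0.00119). So did those of -0.64 ± 0.12 at 16 h and -0.59 ± 0.12 at 30 h, in the other direction (limma adjusted p = 0.000948 and 0.0014). From 16 h to 30 h BCH1 fell in both genotypes, by 1.38 on the log2 scale in Col-0 and by 1.33 in ilp1-1. With the libraries of 30 h alone in the fit, the genotype difference at that time did not pass.

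BCH2 fell steeply in both genotypes during high light. In Col-0 it held 54.2 and 45.4 FPKM at 0 h, 23.0 and 21.4 at 4 h, 4.15 and 2.79 at 8 h, 7.13 and 5.92 at 16 h, and 9.49 and 8.32 at 30 h. In ilp1-1 it held 64.5 and 59.0 FPKM at 0 h, 31.8 and 30.6 at 4 h, 9.13 and 10.7 at 8 h, 3.59 and 4.19 at 16 h, and 7.80 and 10.0 at 30 h. The lowest point was at 8 h in Col-0, where the 2 libraries held 75 and 50 reads, and at 16 h in ilp1-1, with 71 and 79 reads. Relative to 0 h the change at 8 h was -3.52 ± 0.15 in Col-0 and -2.53 ± 0.15 in ilp1-1, and these changes differed by 0.99 ± 0.22 (limma adjusted p = 0.00611). At 16 h the changes were -2.75 and -3.68, and they differed by -0.93 ± 0.22 (limma adjusted p = 0.00846). BCH2 was thus higher in ilp1-1 at 8 h, by 1.30 ± 0.15, and lower at 16 h, by -0.62 ± 0.15. The 16 h call ended without Col-0 16 h replicate 1 (-0.50), without ilp1-1 16 h replicate 1 (-0.53) and with the libraries of that time alone in the fit. At 4 h the difference of 0.47 passed but ended without any 1 of its 4 libraries (0.42 to 0.52). At 30 h the libraries of the genotypes overlapped and the difference was -0.01.

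BCH1 exceeded BCH2 in every library, by a factor that moved with time. The ratio of BCH1 to BCH2 in Col-0 was 1.41 ± 0.083 (0 h, SD, n = 2), 3.30 ± 0.11 (4 h), 18.0 ± 3.8 (8 h), 13.9 ± 1.5 (16 h) and 3.84 ± 0.48 (30 h). In ilp1-1 it was 1.23 ± 0.098 (0 h), 3.61 ± 0.033 (4 h), 5.86 ± 0.67 (8 h), 14.9 ± 2.4 (16 h) and 2.62 ± 1.0 (30 h). The highest ratio came at 8 h in Col-0 and at 16 h in ilp1-1. As a mean over the 5 times the log2 ratio differed by -0.43 (exact permutation test, two-sided, p = 0.0579, adjusted over 3 ratios 0.0579), which did not pass. With a pseudocount of 1 it was -0.41 and passed (exact permutation, adjusted p = 0.0478). It also passed without ilp1-1 0 h replicate 1 (-0.45), ilp1-1 16 h replicate 1 (-0.47) or ilp1-1 30 h replicate 1 (-0.52).

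LUT5 and LUT1 are the cytochrome P450 hydroxylases of the lutein branch, acting mainly on the β-ring and the ε-ring of α-carotene. LUT5 held 48.1 and 49.2 FPKM in Col-0 at 0 h, 80.4 and 76.6 at 4 h, 87.0 and 86.5 at 8 h, 95.4 and 87.0 at 16 h, and 66.2 and 71.7 at 30 h. In ilp1-1 LUT5 held 49.9 and 48.2 FPKM at 0 h, 50.3 and 50.1 at 4 h, 58.2 and 55.9 at 8 h, 63.1 and 66.8 at 16 h, and 48.8 and 46.8 at 30 h. The genotypes overlapped at 0 h, and at every later time both ilp1-1 libraries were below both Col-0 libraries. LUT5 rose by 0.68 ± 0.064 in Col-0 from 0 h to 4 h (limma adjusted p = 4.07e-07), while the ilp1-1 change of 0.03 ± 0.064 did not pass. The genotypes differed in the LUT5 change from 0 h to all 4 later times, by -0.64 (4 h), -0.61 (8 h), -0.49 (16 h) and -0.53 (30 h), each with an SE of 0.091 and each passing in limma. All 4 also passed in each alternative fit that could be run.

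LUT1 had the narrowest course in Col-0 and was lower in ilp1-1 throughout. The Col-0 libraries held 12.5 and 13.7 FPKM at 0 h, 13.3 and 13.3 at 4 h, 15.8 and 13.9 at 8 h, 15.4 and 16.6 at 16 h, and 13.9 and 13.9 at 30 h. The ilp1-1 libraries held 8.27 and 6.89 FPKM at 0 h, 8.44 and 8.96 at 4 h, 9.71 and 8.79 at 8 h, 11.6 and 10.2 at 16 h, and 7.16 and 7.85 at 30 h. All 10 ilp1-1 libraries lay below all 10 Col-0 libraries. The genotype difference ran from -0.52 ± 0.11 at 16 h to -0.81 ± 0.11 at 30 h and passed in limma at all 5 times. Over time LUT1 passed in no comparison in Col-0, though the change from 0 h to 16 h (0.27) passed as higher with total scaling (0.33), with no trend (0.27) and in limma-voom (0.30). In ilp1-1 it rose from 0 h to 16 h (0.47 ± 0.11) and fell from 16 h to 30 h (-0.48 ± 0.11). The rise ended with the libraries of those times alone in the fit. None of the differences between genotypes in the LUT1 change over time passed. At 16 h the call ended with reads scaled to library totals (-0.26).

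The xanthophyll cycle genes moved in opposite directions in Col-0. VDE held 14.7 and 16.3 FPKM in Col-0 at 0 h, 34.9 and 32.4 at 4 h, 35.4 and 33.0 at 8 h, 31.9 and 30.6 at 16 h, and 32.6 and 29.5 at 30 h. In ilp1-1 VDE held 17.0 and 15.5 FPKM at 0 h, 11.8 and 11.4 at 4 h, 24.9 and 21.2 at 8 h, 22.9 and 19.7 at 16 h, and 15.5 and 17.1 at 30 h. The genotypes overlapped at 0 h, and at 4 h the ilp1-1 libraries were below all others of the series. From 0 h to 4 h VDE rose by 1.07 ± 0.10 in Col-0 (limma adjusted p = 3.59e-07) and changed by -0.45 ± 0.10 in ilp1-1 (adjusted p = 0.00185). These opposite changes differed by -1.53 ± 0.14 (limma adjusted p = 7.58e-06). The ilp1-1 level at 4 h was 0.344 of the Col-0 level, and both ilp1-1 libraries of that time also carried a raised share of plastid-encoded reads, whose part was not tested. At 30 h, after the return to normal light, VDE in ilp1-1 did not pass against 0 h (difference 0.00 ± 0.10). In Col-0 VDE was still 0.96 ± 0.10 above its 0 h level. With reads scaled to library totals the values were 0.22 in ilp1-1, which did not pass (limma adjusted p = 0.0599), and 1.06 in Col-0. The difference between genotypes in the change from 0 h to 30 h was -0.96 ± 0.14 (limma adjusted p = 0.00025). At 16 h the corresponding value of -0.60 ended without ilp1-1 16 h replicate 2 (-0.50, limma adjusted p = 0.0544), and the smaller ilp1-1 change from 0 h to 16 h (0.37) ended without ilp1-1 0 h replicate 2 (0.30) or ilp1-1 16 h replicate 1 (0.27).

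ZEP fell during high light and rose again by 30 h. In Col-0 it held 173 and 173 FPKM at 0 h, 85.3 and 81.5 at 4 h, 30.8 and 25.4 at 8 h, 40.9 and 43.1 at 16 h, and 128 and 116 at 30 h. In ilp1-1 it held 128 and 124 FPKM at 0 h, 100 and 103 at 4 h, 50.6 and 56.0 at 8 h, 29.3 and 25.4 at 16 h, and 68.6 and 79.3 at 30 h. The lowest level came at 8 h in Col-0 and at 16 h in ilp1-1. The fall from 0 h to 8 h was -2.59 ± 0.096 in Col-0 and -1.23 ± 0.096 in ilp1-1, a difference of 1.36 ± 0.14 (limma adjusted p = 8.46e-06). Relative to Col-0, ZEP was lower in ilp1-1 at 0 h (-0.46), higher at 8 h (0.91) and lower again at 16 h (-0.61) and 30 h (-0.71), each with an SE of 0.096 and each passing in limma. The call at 4 h (0.28) ended without any 1 of its 4 libraries (0.25 to 0.31). As a mean over the 5 times the value was -0.12, which turned to 0.05 with reads scaled to library totals and lost its call without Col-0 4 h replicate 1, Col-0 8 h replicate 1, Col-0 16 h replicate 2, Col-0 30 h replicate 1, or the ilp1-1 libraries 8 h replicate 1, 16 h replicate 2 or 30 h replicate 1 (-0.11 to -0.09).

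The ratio of VDE to ZEP rose and fell in both genotypes. In Col-0 it went from 0.0893 ± 0.0062 (0 h, SD, n = 2) to 0.404 ± 0.0083 (4 h), 1.23 ± 0.10 (8 h), 0.745 ± 0.049 (16 h) and 0.255 ± 0.00062 (30 h). In ilp1-1 it went from 0.129 ± 0.0064 (0 h) to 0.114 ± 0.0044 (4 h), 0.436 ± 0.079 (8 h), 0.779 ± 0.0036 (16 h) and 0.221 ± 0.0069 (30 h). VDE exceeded ZEP in the 2 Col-0 libraries of 8 h and in no other library. The log2 ratio of ilp1-1 was below that of Col-0 by 1.81 at 4 h, both ilp1-1 libraries were also below both Col-0 libraries at 8 h, and at 16 h the genotypes overlapped (0.07). As a mean over the 5 times the difference was -0.58 (exact permutation test, two-sided, p = 0.0468, adjusted over 3 ratios 0.0579), which did not pass. It passed with a pseudocount of 1 (-0.56, exact permutation, adjusted p = 0.0478), and without ilp1-1 0 h replicate 1 (-0.59), ilp1-1 16 h replicate 1 (-0.58) or ilp1-1 30 h replicate 1 (-0.59). Leaving out the libraries of 4 h and 8 h turned it to 0.13, which did not pass.

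CCD4, a dioxygenase that cleaves carotenoids, showed the widest changes of the 10. In Col-0 it held 114 and 114 FPKM at 0 h, 21.0 and 19.8 at 4 h, 2.11 and 2.26 at 8 h, 0.898 and 1.74 at 16 h, and 68.0 and 57.8 at 30 h. In ilp1-1 it held 59.3 and 57.6 FPKM at 0 h, 3.85 and 4.05 at 4 h, 1.09 and 1.04 at 8 h, 0.739 and 0.238 at 16 h, and 6.63 and 11.1 at 30 h. Both ilp1-1 libraries were below both Col-0 libraries at every time. Relative to 0 h the mean FPKM at 16 h was 86.2-fold lower in Col-0 and 120-fold lower in ilp1-1, resting on 24 and 54 reads for Col-0 and on 26 and 8 reads for ilp1-1 at 16 h. With 1 of the 16 h libraries at a time these folds were 127 and 65.3 in Col-0 and 79.1 and 245 in ilp1-1. The genotype difference was -2.11 ± 0.20 at 4 h (limma adjusted p = 1.43e-06) and -2.73 ± 0.20 at 30 h (adjusted p = 5.16e-08), when ilp1-1 stood at 0.141 of the Col-0 level. Both of these passed in each alternative that could be run. At 8 h (-0.63) the call ended without any 1 of its 4 libraries (-0.59 to -0.66), with no filter on low values and in limma-voom on recovered reads (-1.02). At 16 h (-0.64) it ended without Col-0 16 h replicate 2 (-0.37) or ilp1-1 16 h replicate 2 (-0.39), with the libraries of that time alone, and in limma-voom (-1.56). At 0 h (-0.95) it ended with a pseudocount of 0.1, where the limma adjusted p was 0.055, the highest over 28 alternatives.

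CCD4 was higher at 30 h, after the return to normal light, than at 16 h in both genotypes. From 16 h to 30 h it rose by 4.80 ± 0.20 in Col-0 and 2.71 ± 0.20 in ilp1-1. The difference of -2.10 ± 0.28 passed (limma adjusted p = 0.000439) but ended with a pseudocount of 0.1 (-1.51) and with limma-voom on recovered reads (-1.33), where adjusted p reached 0.327 over 28 alternatives. Measured from 0 h instead, the difference between genotypes in the change to 30 h was -1.78 ± 0.28 (limma adjusted p = 0.00047) and passed in all 28 alternatives.

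**Figure D3:**
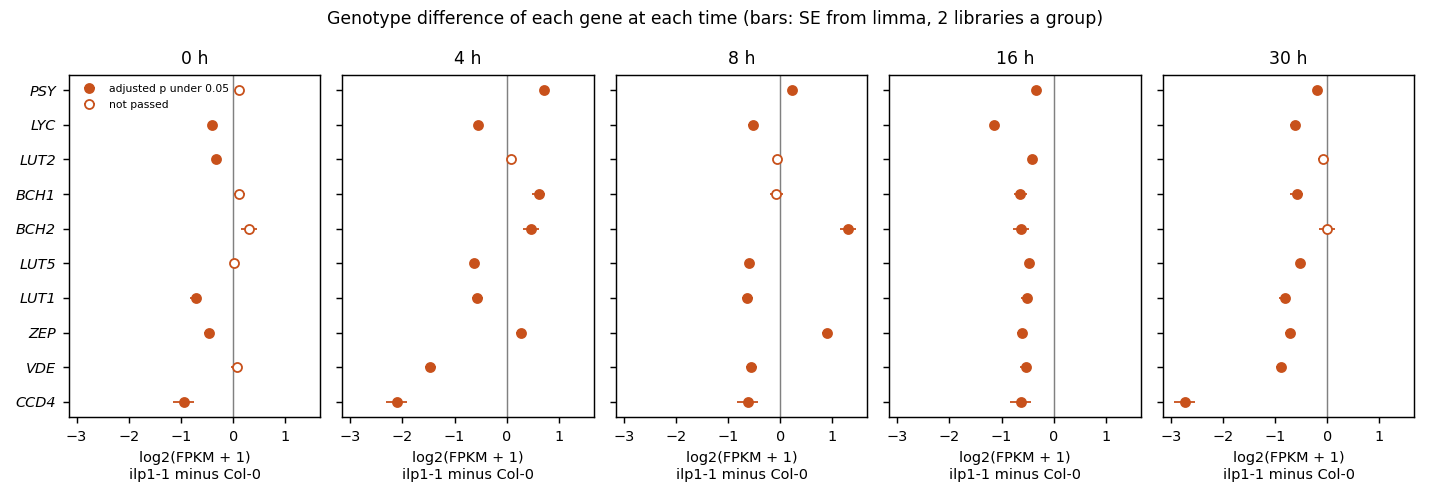
Difference in log2(FPKM + 1), ilp1-1 minus Col-0, of each gene at 0, 4, 8, 16 and 30 h, with bars of 1 SE from limma, filled where the adjusted p was under 0.05. At 4 h and 8 h the genes lie on both sides of 0, and at 16 h all 10 lie below it.

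Counted over the 10 genes, the direction of the genotype difference changed with time. At 0 h 5 genes were lower and none higher in ilp1-1, and of all genes tested 22.2% passed in limma, 12.2% as lower and 10% as higher. Leaving out Col-0 0 h replicate 2 brought the count to 3, since LYC and LUT2 lost their calls. PSY, BCH1, BCH2, LUT5 and VDE were those that did not pass. With reads scaled to library totals PSY (0.23) and BCH2 (0.42) passed as higher and LUT2 did not pass, which made 2 higher and 4 lower, beside 16.4% of all genes higher and 8.64% lower under that scaling. BCH2 also passed in limma-voom (0.32). At 4 h 4 genes were higher (PSY, BCH1, BCH2 and ZEP) and 5 lower, beside 14.7% of all genes higher and 15.8% lower (30.6% together). At 8 h 3 were higher (PSY, BCH2 and ZEP) and 5 lower, beside 14.3 and 15.2% (29.5% together). At 16 h all 10 were lower, beside 16.7% of all genes lower and 11% higher (27.7% together). At 30 h 8 were lower and none higher, beside 16.8% lower and 17.2% higher (34% together). The 3 mesophyll markers were also lower in 3 of 3 cases at 16 h (median -0.72) and at 30 h (median -1.33), and their part in these counts was not tested.

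The median difference of the 10 genes was -0.16 before high light, then -0.23 (4 h), -0.30 (8 h), -0.57 (16 h) and -0.61 (30 h), while that of all genes tested lay between -0.00 and 0.04. With reads scaled to library totals the medians were -0.05, -0.06, -0.20, -0.30 and -0.39, beside 0.09, 0.14, 0.09, 0.23 and 0.22 for all genes. These 5 comparisons share no library. As a mean over the 5 times 2 genes were higher (PSY and BCH2) and 7 lower, beside 29.3% of all genes higher and 27.8% lower (57.2% together). With the 4 h and 8 h libraries of ilp1-1 left out, PSY turned to -0.14 and BCH2 to -0.11 in that mean.

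Deposited values follow median-of-ratios size factors, and scaling reads to library totals instead took the median difference of all genes from -0.00 to 0.23 at 16 h and from 0.04 to 0.22 at 30 h. The share of higher genes among all genes that passed then went from 39.7 to 78.1% at 16 h and from 50.5 to 76.3% at 30 h. Under that scaling 7 of the 10 genes were lower and none higher at 16 h, beside 8.99% of all genes lower and 32.1% higher (41.1% together). At 30 h 7 were lower and none higher, beside 10.7 and 34.4% (45.1% together). PSY, LUT1 and LUT2 lost their call at 16 h, and PSY lost it at 30 h.

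Over time in Col-0, 2 of the 10 genes were higher and 6 lower at 4 h than at 0 h, beside 22.6 and 23.5% of all genes (46.1% together). At 8 h 2 were higher and 6 lower, beside 24.9 and 25.1% (50.1% together). At 16 h 3 were higher and 6 lower, beside 22.2 and 19.8% (42% together), and at 30 h 2 were higher and 7 lower, beside 20.8 and 19.7% (40.4% together). LUT1 was the gene that passed at none of these times, and VDE and LUT5 were higher at all 4. The LYC call at 30 h (-0.25) ended under total scaling (-0.14), with no trend and with its own libraries alone. It also ended without Col-0 0 h replicate 2 (-0.18) or either Col-0 30 h library (-0.27 and -0.23). That of BCH1 at 16 h ended without Col-0 0 h replicate 2 (0.29) or either Col-0 16 h library (0.34 and 0.38).

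In ilp1-1 1 gene was higher and 6 lower at 4 h than at 0 h, beside 20.6 and 20.4% of all genes (41% together). At 8 h 2 were higher and 7 lower, beside 23.8 and 23.2% (47% together). At 16 h 3 were higher and 7 lower, beside 21.7 and 22.1% (43.8% together). At 30 h none was higher and 7 were lower, beside 27.6 and 24.5% (52.1% together). The 4 h calls of ZEP and LUT2 ended without ilp1-1 0 h replicate 1 or either 4 h library (-0.33 to -0.20). At 8 h those of BCH1 and LUT5 ended without ilp1-1 8 h replicate 1 (-0.39 and 0.19), among other libraries. At 16 h that of BCH1 ended under total scaling (-0.16) and without ilp1-1 0 h replicate 1 (-0.25) or 16 h replicate 2 (-0.34). Under total scaling 1 gene was higher at 30 h (LUT5, 0.19) and 7 lower, beside 39.2 and 17.4%. From 16 h to 30 h 2 genes rose and 4 fell in Col-0, beside 18.4 and 19.3% of all genes (37.7% together). In ilp1-1 4 rose and 5 fell over that span, beside 24.6 and 20% (44.6% together). Comparisons of 1 genotype with 0 h share the 0 h libraries.

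The difference between genotypes in the change from 0 h to 4 h passed for 3 genes as positive and 3 as negative, beside 4.22 and 5.12% of all genes (9.34% together). For the change to 8 h 2 were positive and 2 negative, beside 6.49 and 6.78% (13.3% together). For that to 16 h 6 were negative and none positive, beside 9.59% negative and 4.6% positive (14.2% together). For that to 30 h 5 were negative and none positive, beside 9.19 and 7.65% (16.8% together). Under total scaling PSY lost both calls (-0.28 and -0.21), which left 5 and 4 negative, beside 6.24 and 7.025% of all genes. None was positive under that scaling, beside 9.77 and 12.5%. The count at 30 h was 3 without ilp1-1 0 h replicate 1. The calls for PSY at 30 h (-0.32) and LUT2 at 4 h (0.41) ended in 22 and 21 alternatives. Of the 8 libraries each comparison rests on, PSY kept its call only without ilp1-1 0 h replicate 2 or ilp1-1 30 h replicate 2, and LUT2 only without ilp1-1 0 h replicate 1 (-0.37 to -0.21 and 0.34 to 0.45 where lost). For CCD4 at 4 h (-1.16) the call ended without Col-0 0 h replicate 1 (-1.16), Col-0 0 h replicate 2 (-1.16), Col-0 4 h replicate 1 (-1.12) or ilp1-1 4 h replicate 1 (-1.13), and with a pseudocount of 0.1 (-1.38). For BCH1 at 30 h (-0.70) it ended without ilp1-1 0 h replicate 1 (-0.56) and with the libraries of that comparison alone. From 16 h to 30 h LYC passed at 0.51 and CCD4 at -2.10, beside 2.84% of all genes positive and 1.8% negative (4.63% together). The LYC call ended without any 1 of 6 of the 8 libraries concerned (0.39 to 0.54), and held without Col-0 16 h replicate 2 or ilp1-1 16 h replicate 1.

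Other genes of the pathway were taken from 6 lists with 46 members, of which 40 met the filter on low values. As a mean over the 5 times 6 were higher and 30 lower in ilp1-1, beside 29.3 and 27.8% of all genes, with a median of -0.27 beside 0.01 for all genes tested. With reads scaled to library totals 19 were lower and 6 higher (median -0.12), beside 16.6% of all genes lower and 47.7% higher and a median of 0.16. At 30 h 28 of the 40 were lower and 3 higher, beside 16.8 and 17.2% of all genes. Under total scaling these were 19 and 5, beside 10.7 and 34.4%.

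Precursor supply, the plastid pathway that makes geranylgeranyl diphosphate, had 9 of 9 tested members lower as a mean over the 5 times, and 6 with reads scaled to library totals, where 27.8 and 16.6% of all genes were lower. The lowest adjusted p was that of HDS (-0.56 ± 0.026), followed by ISPD (-0.66 ± 0.044), DXR (-0.51 ± 0.034) and ISPE (-0.51 ± 0.038). Over time in Col-0, the enzymes at the beginning and end of that pathway, DXS and HDR, were lower at 8 h than at 0 h by -1.73 and -2.49, and ISPD was higher by 0.72. Of the 9 tested, 5 were higher and 2 lower over that span under total scaling, beside 27.7 and 21.6% of all genes. GGPPS11, the main geranylgeranyl diphosphate synthase of plastids, was listed at 0 to 0.112 FPKM and did not meet the filter, and 1529 of its 1798 bases overlap AT4G36808 on the opposite strand. Between phytoene and lycopene 7 of 7 were lower as a mean, and 4 under total scaling, beside the same shares of all genes (27.8 and 16.6%). Among them were the isomerase Z-ISO (-0.55 ± 0.051) and the desaturases ZDS (-0.36 ± 0.037) and PDS3 (-0.34 ± 0.036). OR, a chaperone that stabilises PSY, fell by 1.75 on the log2 scale in Col-0 from 0 h to 8 h. Of the 7 in this list, 4 were higher and 2 lower over that span under total scaling, beside 27.7 and 21.6% of all genes.

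Genes of thermal quenching and further xanthophyll steps were lower in 6 of 6 cases as a mean and in 6 of 6 at 30 h, against 4 and 5 under total scaling. Of all genes 27.8% were lower as a mean and 16.8% at 30 h, and 16.6 and 10.7% under total scaling. The plastid lipocalin LCNP, needed for a slow form of quenching, rose in Col-0 from 0 h to 4 h by 2.08 ± 0.088 and was -1.13 ± 0.088 lower in ilp1-1 at 4 h. At 0 h LCNP was higher in ilp1-1 (0.70 ± 0.088). PSBS, the sensor protein of fast quenching, was -0.95 ± 0.068 lower at 30 h, and SOQ1, which restrains the slow form, -1.05 ± 0.082.

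Cleavage enzymes and abscisic acid synthesis had 2 of 7 tested members higher and 2 lower as a mean, a share near that of all genes (29.3% higher and 27.8% lower). CCD1, a cytosolic carotenoid cleavage enzyme, was -0.49 ± 0.031 lower and D27, an isomerase that opens strigolactone synthesis, -0.97 ± 0.087 lower. ABA3, which makes the cofactor of the last abscisic acid enzyme, was 0.68 ± 0.080 higher. The dioxygenase NCED5, counted as the other higher member, lay between 0.0410 and 1.55 FPKM on 1 to 49 reads and met the filter only through 2 ilp1-1 libraries. Of the plastoglobule fibrillins 1 of 4 was higher and 3 lower as a mean, and 1 and 2 under total scaling, beside 29.3 and 27.8% of all genes (47.7 and 16.6% under total scaling). FBN1a was lower in ilp1-1 at 0 h (-1.30), 4 h (-0.52) and 30 h (-0.88), higher at 8 h (0.45) and did not pass at 16 h (0.10), each with an SE of 0.095. Of the regulators of carotenoid genes 3 of 7 were higher and 3 lower as a mean, beside 29.3% of all genes higher and 27.8% lower. Under total scaling 3 were higher and 1 lower, beside 47.7 and 16.6% of all genes. The transcription factor HY5, an activator of PSY in the light, was 0.70 ± 0.050 higher, and PIF4, of the family that represses PSY in the dark, was -0.91 ± 0.069 lower.

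**Figure D4:**
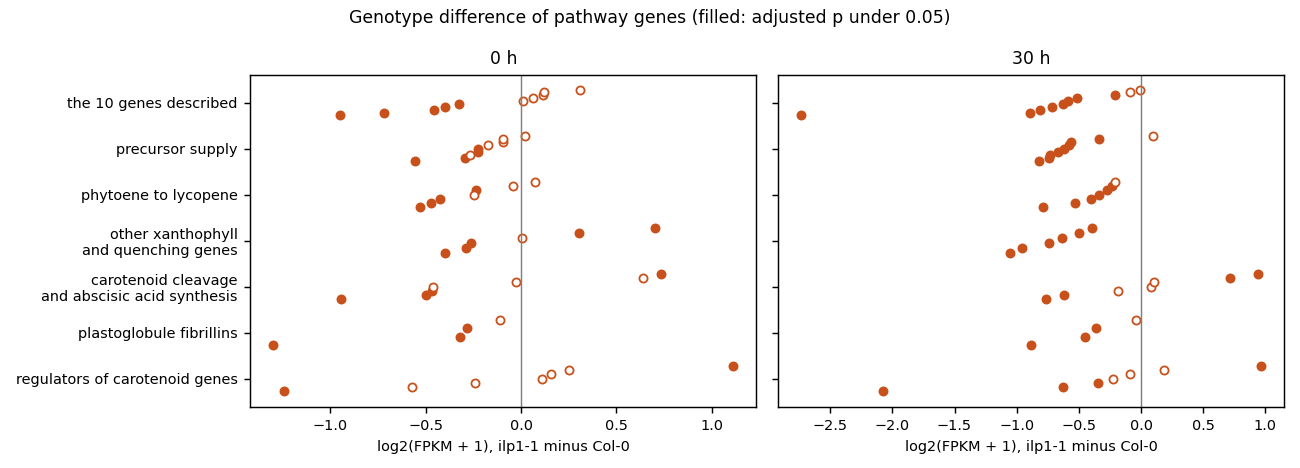
Difference in log2(FPKM + 1), ilp1-1 minus Col-0, of the 10 genes and of the members of 6 pathway lists at 0 h and 30 h, with 1 point per gene, filled where the limma adjusted p was under 0.05, and the x ranges of the panels differ. At 30 h 28 of the 40 other pathway genes were lower and 3 higher.

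The 10 genes did not follow a single course. Over the 20 libraries the Pearson correlation of log2(FPKM + 1) was 0.89 between VDE and LUT5, 0.88 between ZEP and CCD4 and 0.86 between ZEP and BCH2. The lowest were -0.62 between BCH2 and LUT5 and -0.61 between ZEP and LUT5. All these points share their libraries, times and genotypes, so the values are a description.

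Among 12119 other genes with a mean of at least 5 FPKM, the course most like that of ZEP was that of HDR (listed as ISPH), with r = 0.98, followed by CAO, which makes chlorophyll b (0.96). For CCD4 these were AT2G18300 (0.98) and AT5G16030 (0.97), for BCH2 AT3G45210 (0.97) and HCF107 (0.96), and for LUT5 AT5G66530 (0.99) and SKL2 (0.97). For LYC they were GGAT1, a photorespiratory aminotransferase (0.97), and AT5G13770 (0.95). For VDE they were RBCX1 (0.94) and CXE4 (0.92), for PSY FLZ5 (0.95) and GALS2 (0.95), and for LUT1 ATHB22 (0.95) and ATH1 (0.95). For BCH1 they were TIM17-3 (0.94) and PDCB1 (0.94), and for LUT2 ADC1 (0.93) and CYP96A12 (0.92).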

How the data were processed

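The authors deposited 10 tables of FPKM values, 1 per genotype and time, with a gene length per gene. The submitters' processing notes name HISAT2 2.0.5, TAIR10 and featureCounts 1.5.0-p3. How FPKM was calculated and whether strand was used in counting are not stated there. FPKM times length came out as whole reads (tolerance 0.001, largest distance 4.95e-05 reads), and the FPKM denominators followed median-of-ratios size factors, at 0.889 to 1.18 times the recovered reads.

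Values of log2(FPKM + 1) of 19311 genes, with 1 FPKM or more in at least 2 libraries, were fitted as 10 group means with limma 3.58.1 in R 4.3.3 (empirical Bayes with an intensity trend, 10 residual degrees of freedom, 21 contrasts). The pseudocount makes fold changes of weakly expressed genes look smaller than they are. A genotype difference in such changes can look larger, as for CCD4 from 16 h to 30 h (-2.10, against -1.51 with a pseudocount of 0.1). Adjustment was over all genes within a contrast, and the script was tested on simulated data. The 3 log2 ratios were tested by exact permutation of genotype within each time (7776 arrangements) with numpy 2.4.6. The 10 genes, the lists and the tests were chosen with earlier results of these data known. All 10 genes are named, and of each list up to 4 genes that passed in a contrast, by smallest adjusted p. Genes of like course are the 2 with the highest Pearson r. Alternatives were another pseudocount, no filter, total scaling, no trend, a replicate block, fewer libraries, limma-voom on recovered reads, and each library left out in turn. In each of the 10 groups the 2 libraries differed beyond sampling noise, most of all Col-0 at 0 h (chi-square per degree of freedom 28.8, against 3.04 to 10.1). Splicing was not analysed here.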

Additional observations from a re-analysis of the deposited data

Results flagged for a closer look

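In 23 cases the genotypes differed in a gene's change over time, by limma's test of that difference with adjustment over 19311 genes. Values are on the log2(FPKM + 1) scale, ilp1-1 minus Col-0, and the comparisons from 0 h share the 0 h libraries.

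From 0 h to 4 h the difference was 0.6005 for PSY, 0.7365 for ZEP and 0.414 for LUT2, all positive. It was -1.526 for VDE, -0.6448 for LUT5 and -1.159 for CCD4. From 0 h to 8 h it was 1.363 for ZEP and 0.9899 for BCH2, and -0.6173 for VDE and -0.6068 for LUT5. For ilp1-1 at 4 h and 8 h, plastid-encoded reads took 0.0995 to 0.453%, and their part was not tested.

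From 0 h to 16 h the difference was -0.4506 for PSY, -0.6023 for VDE, -0.7505 for BCH1, -0.9286 for BCH2, -0.4931 for LUT5 and -0.7382 for LYC. From 0 h to 30 h it was -0.3247 for PSY, -0.9555 for VDE, -0.6993 for BCH1, -0.5283 for LUT5 and -1.782 for CCD4. From 16 h to 30 h it was 0.5131 for LYC and -2.095 for CCD4. VDE and LUT5 passed at all 4 later times against 0 h, and BCH2 changed sign between 8 h and 16 h. With reads scaled to library totals PSY passed neither at 16 h (-0.28) nor at 30 h (-0.21).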

How the results depend on the processing

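Across 210 results of the 10 genes, 154 of them past the threshold, 5611 of 5810 alternative values kept direction and side of the threshold, 165 fell short of it, 28 newly passed and 6 turned direction. With reads scaled to library totals, the mean difference turned to 0.05484 for ZEP and 0.01322 for LUT2, PSY at 30 h turned to 0.01946, and LUT5 in ilp1-1 at 30 h against 0 h to 0.1883. With the 4 h and 8 h libraries of ilp1-1 left out, the mean turned to -0.1396 for PSY and -0.1054 for BCH2. With only a contrast's own libraries in the fit, which leaves fewer samples for the spread, genes passing went from 5 to 3 at 0 h, from 5 to 3 for the change from 0 h to 30 h, and from 2 to 1 for that from 16 h to 30 h. The last was also 1 with a pseudocount of 0.1, no trend, limma-voom, and without those 4 libraries. Leaving out 1 library gave 3 to 5 at 0 h, 3 to 5 for 0 h to 30 h and 1 to 2 for 16 h to 30 h. The ratio differences then ran from -0.6212 to -0.5468 for VDE to ZEP, 0.4718 to 0.536 for LUT2 to LYC and -0.5151 to -0.3521 for BCH1 to BCH2. With a pseudocount of 1, VDE to ZEP (-0.5567) and BCH1 to BCH2 (-0.4054) passed. Without the 4 h and 8 h libraries LUT2 to LYC (0.4607) did not. The cause was not tested.

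Over all genes, counts that moved by over 1.5 times were 4292 at 0 h (1565 with own libraries, 2508 without Col-0 0 h replicate 2), 5900 at 4 h (3878 own), 5700 at 8 h (3767 without ilp1-1 8 h replicate 2), 5343 at 16 h (3514 own, 3528 without ilp1-1 16 h replicate 2) and 6573 at 30 h (3974 own). For the change from 0 h to 4 h 1804 genes passed (1060 own, 1202 and 1179 without Col-0 0 h replicate 2 or ilp1-1 4 h replicate 2). For 16 h to 30 h 895 passed (378 own, 547 and 556 without Col-0 30 h replicate 2 or ilp1-1 16 h replicate 1). Replicate numbers did not pair libraries, since deviations of same-numbered libraries correlated at -0.15 to 0.13 over 45 pairs of groups. With the replicate block the PSY change from 0 h to 30 h lost its call, and 10 genes passed in the mean over times instead of 9, and 7 instead of 6 from 0 h to 4 h. With 2 libraries a group, levels near 1 FPKM, as for CCD4 at 16 h, rest on few reads.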
